A study of Mus musculus with 42 samples.

Results

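The translation initiation and elongation factors of the mouse liver were taken as all protein-coding genes whose symbol starts with Eif or Eef, without the Eif2ak kinases, that had at least 10 counts in 10 or more of 42 mice. Of 65 protein-coding genes with such symbols, 59 met this count minimum and are the factors described here, among 54446 genes in the table. The other 6, Eef1akmt2, Eef1akmt4, Eif2s3y, Eif4e1b, Eif4e3 and Eif4ebp3, were listed at 0 counts in all mice. Nearest inside the limit lay Eef1akmt3, with 10 or more counts in 18 mice, and Eef1a2, with 19 mice. A further 11 loci with such symbols, mostly processed pseudogenes, are of another gene type.

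Liver RNA was sequenced from female APOE*3-Leiden mice, which carry a human APOE variant as a transgene and develop steatohepatitis and atherosclerosis on a fat- and cholesterol-rich diet. Chow was fed to 10 mice, a Western type diet (WTD) to 16 and the same diet plus atorvastatin to a further 16. Each mouse gave 1 library, so p-values concern the spread between animals. The WTD held 15% cocoa butter, 40.5% sucrose and 1% cholesterol, was given from an age of 8 to 14 weeks through a run-in of 3 weeks, and was supplemented with 0.05% sodium cholate from week 22 to the end at 32 weeks. Atorvastatin, an inhibitor of cholesterol synthesis, was mixed into the WTD only after the run-in, at 3.0 mg/kg/day and at 4.5 mg/kg/day from week 5. Weeks are counted from the end of the run-in. The age of the chow-fed mice was not stated. The transgene is shared by all 3 groups, and chow and WTD differ in more than 1 ingredient.

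Protein synthesis begins when eIF2 brings the initiator tRNA to the small ribosomal subunit, which eIF3 and the eIF4F complex (cap-binding eIF4E, scaffold eIF4G and helicase eIF4A) load onto the mRNA cap. eIF1, eIF1A and eIF5 govern the choice of the start codon, eIF2B recharges eIF2 with GTP, eIF5B joins the subunits, and eEF1 and eEF2 then drive elongation. Many of these mRNAs carry a terminal oligopyrimidine (TOP) tract, a run of C and T at the very start, through which mTORC1 and Larp1 control their translation. The liver is a large producer of secreted protein and uses this machinery heavily.

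On a list of 12 factors known as TOP mRNAs, 8.33% were called (edgeR adjusted p under 0.01) for WTD vs chow, beside 33.5% of all genes. For atorvastatin vs WTD it was 8.33%, beside 7.10%. For atorvastatin vs chow it was 50.0%, or 6 factors (4 higher, 2 lower), beside 25.0%. Some of these calls were lost on leaving out single mice. Eef1a1, Eef1b2, Eif3l and Eif4b were not called with the share of weakly expressed genes missed per library as covariate (edgeR adjusted p = 0.0161 to 0.022). In that fit 3399 of 15574 genes were called. Eef1b2 and Eef1d were not called with library sizes set by total counts (edgeR adjusted p = 0.196 and 0.145). The start regions of 5 of the 6, without Eef1d, which had no RefSeq window, are shown as read from RefSeq on GRCm38.p6. Each line gives 30 bases, 5′ to 3′, and capitals mark the longest run of C and T that opens with C between 10 bases before and 50 bases after the RefSeq start, searched on the strand of the gene.
Eif2s3x: agcattttCCTTTTCTCTCCgagcaagatg
Eif3l: ttcttccgCTCTCTCCCacgggcttctgga
Eif4b: ccgcgccaCCCCCTCgcgctgctttacgaa
Eef1a1: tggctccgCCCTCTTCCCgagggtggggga
Eef1b2: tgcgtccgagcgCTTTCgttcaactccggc
They lie, in the order given, at chrX:94212631-94212660 (minus strand), chr15:79075219-79075248 (plus), chr15:102073775-102073804 (plus), chr9:78481708-78481737 (minus) and chr1:63176851-63176880 (plus). The run was 12 bases long in Eif2s3x, 9 in Eif3l, 7 in Eif4b, 10 in Eef1a1 and 5 in Eef1b2. Counted from the RefSeq start it began, in that order, at -1, 5, 11, -5 and 33. The marked run is thus not in each case a tract at the very start. Of 46 factors with a RefSeq window, 18 held a run of at least 7, or 39.1%, beside 28.2% of all 27025 genes. Among the 38 factors outside the TOP list it was 11, or 28.9%. Of the TOP list, 7 of 8 genes with a window held one, and Eef1b2 was the exception. RefSeq starts can lie away from the real start of the mRNA, so these runs describe the annotated sequence only.

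Library totals ranged from 15661381 to 36224054 counted read pairs. In 9 libraries (3 chow, 5 WTD, 1 atorvastatin) over 20% of the genes at 1 to 2 CPM had no count. The library of chow replicate 1 stood apart by its skeletal muscle transcripts. The summed level of 8 muscle genes, a list chosen after the values were seen, was 3638 CPM there and at most 9.07 CPM in the other 41 mice. Libraries also differed in composition. The summed level of 10 hepatocyte markers was 114740 to 167670 CPM on chow, 54088 to 110450 CPM on WTD and 64974 to 133200 CPM with atorvastatin, and that of 10 macrophage markers was 312 to 516, 1543 to 3085 and 1184 to 2223 CPM. None of these markers was at 0 in all mice. In whole tissue, fewer cells of a type and less RNA per cell cannot be told apart, and the part of these shifts in the results below was not tested.

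The factors together took 0.974% to 1.11% of all counts on chow, 1.19% to 1.41% on WTD and 1.12% to 1.34% with atorvastatin. The chow range lay below both other ranges. On TMM scaling, which sets library sizes by the bulk of genes and not by the total, the summed level was 11642 ± 579 CPM on chow (SD, n = 10), 12074 ± 484 CPM on WTD (n = 16) and 12489 ± 474 CPM with atorvastatin (n = 16), and the ranges overlapped. Scaling by total counts moved the median log2 fold change of all genes by 0.31 for WTD vs chow, by -0.16 for WTD with atorvastatin vs WTD and by 0.15 for WTD with atorvastatin vs chow. All fold changes below use TMM, and falls in particular are relative to that scale.

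Per kilobase of exon, Eef1a1, which delivers aminoacyl-tRNA to the ribosome, had the highest level of all factors, with 1580 CPM per kb on chow, 1731 on WTD and 1810 with atorvastatin. Eef2, the translocase, came next with 482, 475 and 522 CPM per kb. Both stood well above the third, Eif5a, with 152, 130 and 129 CPM per kb, which eases the ribosome through stalling sequences. Eif1 (130, 103 and 107 CPM per kb) and Eef1g (83.0, 86.3 and 79.4) completed the first 5 in each group, and the order of these 5 was the same when the longest transcript was used as length. Reads in introns may be among the counts, which was not tested beyond the nested genes given with the processing, so levels per kb are approximate. On its own, Eef1a1 made up 31.5% to 38.4% of the counts of all factors in single mice. At the other end, Eif5a2, Eef1akmt3, Eif3j2 and, outside 1 mouse, Eef1a2 were near the detection limit, with means under 1 CPM per kb.

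**Figure D1:**
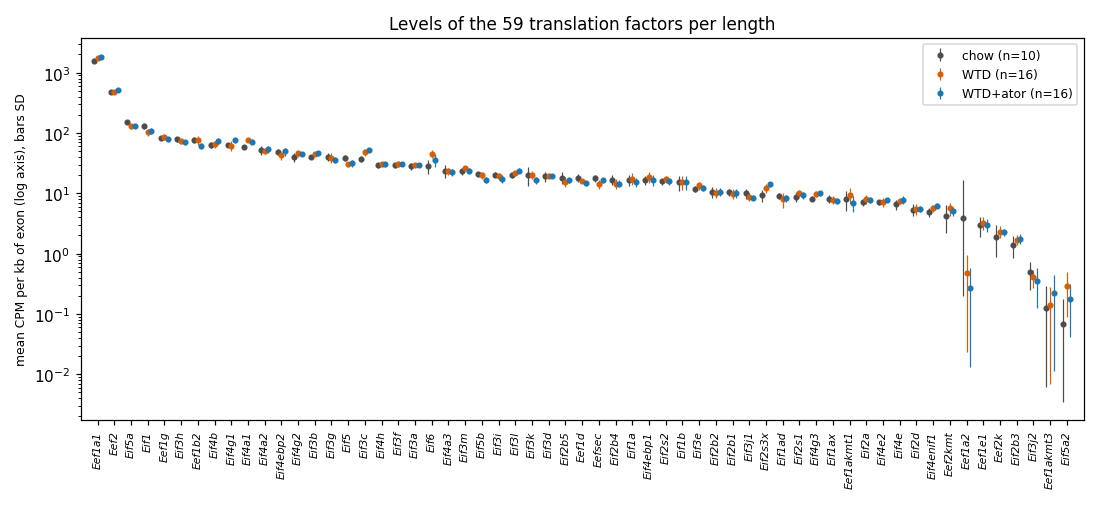
Mean level of each factor in CPM per kilobase of exon on a log axis, with SD over 10 chow-fed, 16 WTD-fed and 16 atorvastatin-treated mice; the lower bar is shortened where the SD reaches the mean. Eef1a1 (1580 CPM per kb on chow) and Eef2 (482) stand above all others, and the 3 groups nearly coincide along most of the order.

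The eIF3 subunits differed in level although they form 1 complex. On chow, Eif3h had 78.7 CPM per kb, Eif3b 40.1, Eif3c 37.1, Eif3a 28.3 and Eif3e 11.8. Order among them depended on the length used, since Eif3g went from 39.8 to 71.8 CPM per kb with its longest transcript. Replicates were tight. The median SD of log2 CPM within chow was 0.19 for the 52 factors at 10 CPM or more, beside 0.31 for all 8737 genes at that level. On WTD these medians were 0.19 and 0.29, and with atorvastatin 0.16 and 0.23.

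The first comparison asked how WTD changed these factors against chow. Of the 59 factors, 5 were higher and 4 lower on WTD at an adjusted p under 0.01 (edgeR quasi-likelihood test, Benjamini-Hochberg over 15574 genes), which is 15.3% of them, where 33.5% of all genes tested were called. The rises were in Eif6, Eif4a1, Eif3c, Eif2s3x and Eif4g3, by 1.21 to 1.59 times, and the falls, to 0.781 to 0.853 of the chow level, in Eif5, Eif1, Eefsec and Eif5a, of which none was called and Eif5a turned to 0.09 (log2) with library sizes set by total counts. The median log2 fold change was 0.04 for the factors and 0.03 for all genes, and the median size without sign was 0.16 and 0.42. These sizes were not matched for level, since on chow 52 of 59 factors but only 8737 of 15574 genes averaged 10 CPM or more. No factor separated the groups without overlap, which 5.83% of all genes did.

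In GENCODE vM21 on GRCm38, the leading factors of the comparisons that follow are Eif6 at chr2:155819832-155826925, Eif4a1 at chr11:69666936-69672423, Eif3c at chr7:126546455-126566411, Eif5 at chr12:111538016-111546752, Eif1 at chr11:100319885-100322096 and Eif4g1 at chr16:20668313-20692884. Counts are given per gene, and whether they include reads in introns was not tested beyond the nested genes given with the processing.

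Eif6, which keeps the large ribosomal subunit from joining too early, spanned 48.3 to 119 CPM on chow (median 72.5) and 75.2 to 142 CPM on WTD (median 124). It was the largest rise among the called factors, with a log2 fold change of 0.67 ± 0.12 (SE, adjusted p = 2.97e-06 in edgeR). Every WTD-fed mouse lay above the chow median, and the highest chow-fed mouse, replicate 6, stood at 119 CPM with the next at 89.9 CPM. With atorvastatin the range was 69.1 to 150 CPM (median 91.6), between the other medians. That difference from WTD was -0.32 ± 0.10 on the log2 scale and did not pass (edgeR adjusted p = 0.0225), although 7 of 11 alternatives called it (adjusted p = 9.67e-05 to 0.0251). Against chow it was 0.35 ± 0.11 and did not pass (edgeR adjusted p = 0.0122), although 4 of 11 alternatives called it (adjusted p = 0.000908 to 0.0081 in those).

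Eif4a1, the main eIF4A helicase, which unwinds the 5′ leader, ran from 239 to 296 CPM on chow (median 249) and from 282 to 382 CPM on WTD (median 333). The ranges overlapped only between 282 and 296 CPM, and the log2 fold change was 0.37 ± 0.06 (edgeR adjusted p = 5.86e-07). With atorvastatin it was 251 to 366 CPM (median 308), above the chow median in all 16 mice. Its paralog Eif4a2 had 219 to 349 CPM on chow (median 273), 229 to 325 CPM on WTD (median 269) and 226 to 404 with atorvastatin (median 289), and for WTD vs chow a log2 fold change of -0.05 ± 0.08 (edgeR adjusted p = 0.654). The ratio of Eif4a1 to Eif4a2 counts within a mouse, free of library scaling, had medians of 0.987 (chow), 1.26 (WTD) and 1.06 (atorvastatin). A processed pseudogene of the eIF4A family held 3727 counts over all mice, beside 278657 for Eif4a1.

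Eif3c, a core eIF3 subunit that contacts eIF1 and eIF5, measured 111 to 155 CPM on chow (median 126), 126 to 195 CPM on WTD (median 170) and 158 to 208 CPM with atorvastatin (median 186). Chow and WTD overlapped, whereas all atorvastatin-treated mice exceeded all chow-fed mice. The log2 fold change from chow was 0.37 ± 0.07 for WTD (edgeR adjusted p = 6.4e-06) and 0.52 ± 0.07 with atorvastatin (edgeR adjusted p = 1.13e-08). Eif3a, the scaffold subunit, had log2 fold changes of 0.07 ± 0.06 and 0.06 ± 0.06 in these comparisons and passed in neither (edgeR adjusted p = 0.376 and 0.503). The Eif3c to Eif3a count ratio was 0.430 to 0.635 on chow, 0.469 to 0.852 on WTD and 0.609 to 0.816 with atorvastatin.

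Eif2s3x, the X-linked gamma subunit of eIF2, lay at 24.7 to 46.8 CPM on chow (median 35.2), 27.6 to 55.7 on WTD (median 48.8) and 38.2 to 62.3 with atorvastatin (median 53.9). The ranges overlapped in each pair, and the log2 fold change for WTD vs chow was 0.38 ± 0.10 (edgeR adjusted p = 0.00144). Without the 9 libraries that miss weakly expressed genes it was 0.27 and no longer passed (edgeR adjusted p = 0.0214, and 3.12e-07 to 0.0214 over 11 alternatives). The alpha and beta subunits, Eif2s1 and Eif2s2, showed 0.19 ± 0.09 and 0.14 ± 0.08 and did not pass (edgeR adjusted p = 0.0743 and 0.13). Eif4g3, a second eIF4G scaffold, was 81.5 to 103 CPM on chow (median 87.0) and 86.0 to 136 CPM on WTD (median 110). All but 1 WTD-fed mouse exceeded the chow median, for a log2 fold change of 0.27 ± 0.07 (edgeR adjusted p = 0.000595). With atorvastatin Eif4g3 was 90.9 to 131 CPM (median 115).

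**Figure D2:**
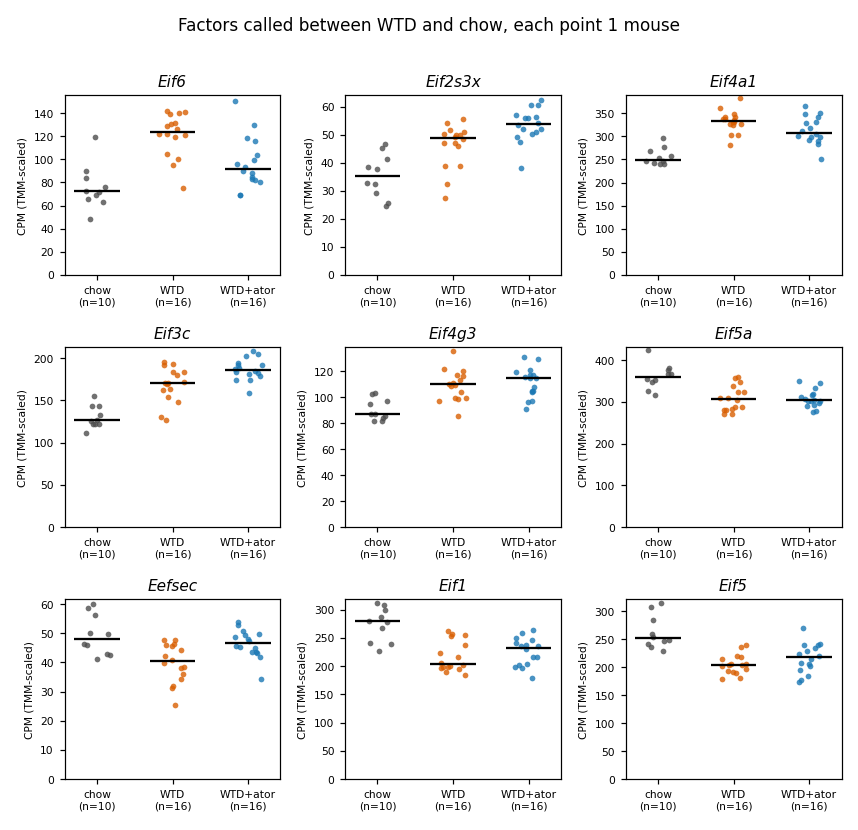
CPM (TMM-scaled, axis from 0) of the 9 factors called between WTD and chow, each point 1 mouse and the line the group median. Eif6, Eif2s3x, Eif4a1, Eif3c and Eif4g3 sit higher on WTD and Eif5a, Eefsec, Eif1 and Eif5 lower on the TMM scale, with overlapping mice in every panel for WTD and chow; on total counts the 4 lower ones are not called and Eif5a turns to 0.09 (log2).

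Among start codon factors, Eif5, which triggers GTP hydrolysis on eIF2, was 230 to 315 CPM on chow (median 252) and 179 to 239 CPM on WTD (median 204). Eif1, which guards against wrong start sites, was 227 to 312 CPM on chow (median 279) and 183 to 263 CPM on WTD (median 204). All 16 WTD-fed mice lay under the chow median for both. With atorvastatin Eif5 was 173 to 271 CPM (median 218) and Eif1 179 to 264 CPM (median 232). The log2 fold changes were -0.36 ± 0.07 for Eif5 (edgeR adjusted p = 1.5e-05) and -0.33 ± 0.07 for Eif1 (edgeR adjusted p = 9.47e-05). With library sizes set by total counts they were -0.04 and -0.03 and were not called, against a median of 0.34 over all genes on that scale. The close paralog Eif1b had -0.01 ± 0.15 (edgeR adjusted p = 0.97), and no other factor of this role group was called.

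Eif5a ran from 316 to 423 CPM on chow (median 360) and from 271 to 359 CPM on WTD (median 306). Eefsec, which brings selenocysteine to the ribosome, ran from 41.3 to 60.0 CPM on chow (median 48.1) and from 25.4 to 47.8 CPM on WTD (median 40.4). Both pairs of ranges overlapped, while every WTD-fed mouse was under the chow median. Log2 fold changes were -0.23 ± 0.06 (edgeR adjusted p = 0.00107) and -0.31 ± 0.09 (edgeR adjusted p = 0.00244). On total counts they were 0.09, with the sign turned, and -0.005, and neither was called, nor was either called without the 9 libraries named above (edgeR adjusted p = 0.0422 and 0.0875). Over 11 alternatives the adjusted p ran from 0.000867 to 0.26 for Eif5a and from 0.00225 to 0.972 for Eefsec. Atorvastatin-treated mice spanned 275 to 349 CPM for Eif5a (median 304) and 34.2 to 53.8 CPM for Eefsec (median 46.6).

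By role, the calls on WTD are read beside the 33.5% of all genes. Of the 3 eIF5A and eIF6 genes 1 was higher and 1 lower (66.7%), of the 3 genes of eEF2, its kinase and the selenocysteine factor 1 was lower (33.3%), and of 7 scanning and start site factors 2 were lower (28.6%), and none of these 4 falls was called on total counts. Of 14 eIF3 genes, 1 was higher (Eif3c) and 13 were not called (7.14%), with a median log2 fold change of 0.05. Of 11 cap-binding, scaffold and helicase genes 2 were higher (18.2%), of 5 eIF2 and initiator tRNA genes 1 was higher (20.0%), and of 5 eIF2B genes none was called by edgeR or DESeq2 and 1, Eif2b4, by limma-voom (2 at an unadjusted p under 0.05). Of the 6 eEF1 genes none was called by edgeR, with 3 at an unadjusted p under 0.05, while DESeq2 called Eef1a1 and Eef1a2 and limma-voom none. Of the 3 elongation factor methyltransferases none was called by edgeR, DESeq2 or limma-voom on WTD, with 1 at an unadjusted p under 0.05 in edgeR. On total counts 10 of 14 eIF3 genes and 10 of 11 of the eIF4 group were higher and none lower. On that scale 6249 of 15574 genes were called, 82.4% of them higher, against the shifted median of all genes. For the unadjusted p under 0.05 in edgeR on TMM the number was 7795 of all 15574 genes. On the TOP list 1 of 12 was higher and none lower (8.33%).

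Neither eIF4E-binding protein was called for WTD vs chow by edgeR on TMM with all mice or by DESeq2, while limma-voom called Eif4ebp2 lower (-0.33, adjusted p = 0.00055). Eif4ebp2, which sequesters eIF4E when mTORC1 is inactive, was 206 to 314 CPM on chow (median 292), 219 to 361 on WTD (median 232) and 225 to 361 with atorvastatin (median 286). In 15 of 16 WTD-fed mice it lay under the chow median, with a log2 fold change of -0.21 ± 0.08 (edgeR adjusted p = 0.0334). Leaving out WTD replicate 15 or chow replicate 2 brought it under the threshold (edgeR adjusted p = 0.00417 and 0.00911), and without all 9 libraries that miss weak genes it was -0.35 (0.000902). Eif4ebp1 was 29.1 to 45.3 CPM on chow, 32.7 to 64.6 on WTD and 26.1 to 49.3 with atorvastatin, with 0.19 ± 0.11 for WTD vs chow (edgeR adjusted p = 0.15). The ratio of Eif4ebp2 to Eif4ebp1 counts within a mouse had medians of 8.08 (chow), 6.06 (WTD) and 8.36 (atorvastatin). Eif4e itself was 30.8 to 58.1 CPM on chow, 37.5 to 53.8 on WTD and 35.2 to 56.7 with atorvastatin, with 0.17 ± 0.09 for WTD vs chow (edgeR adjusted p = 0.119).

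**Figure D3:**
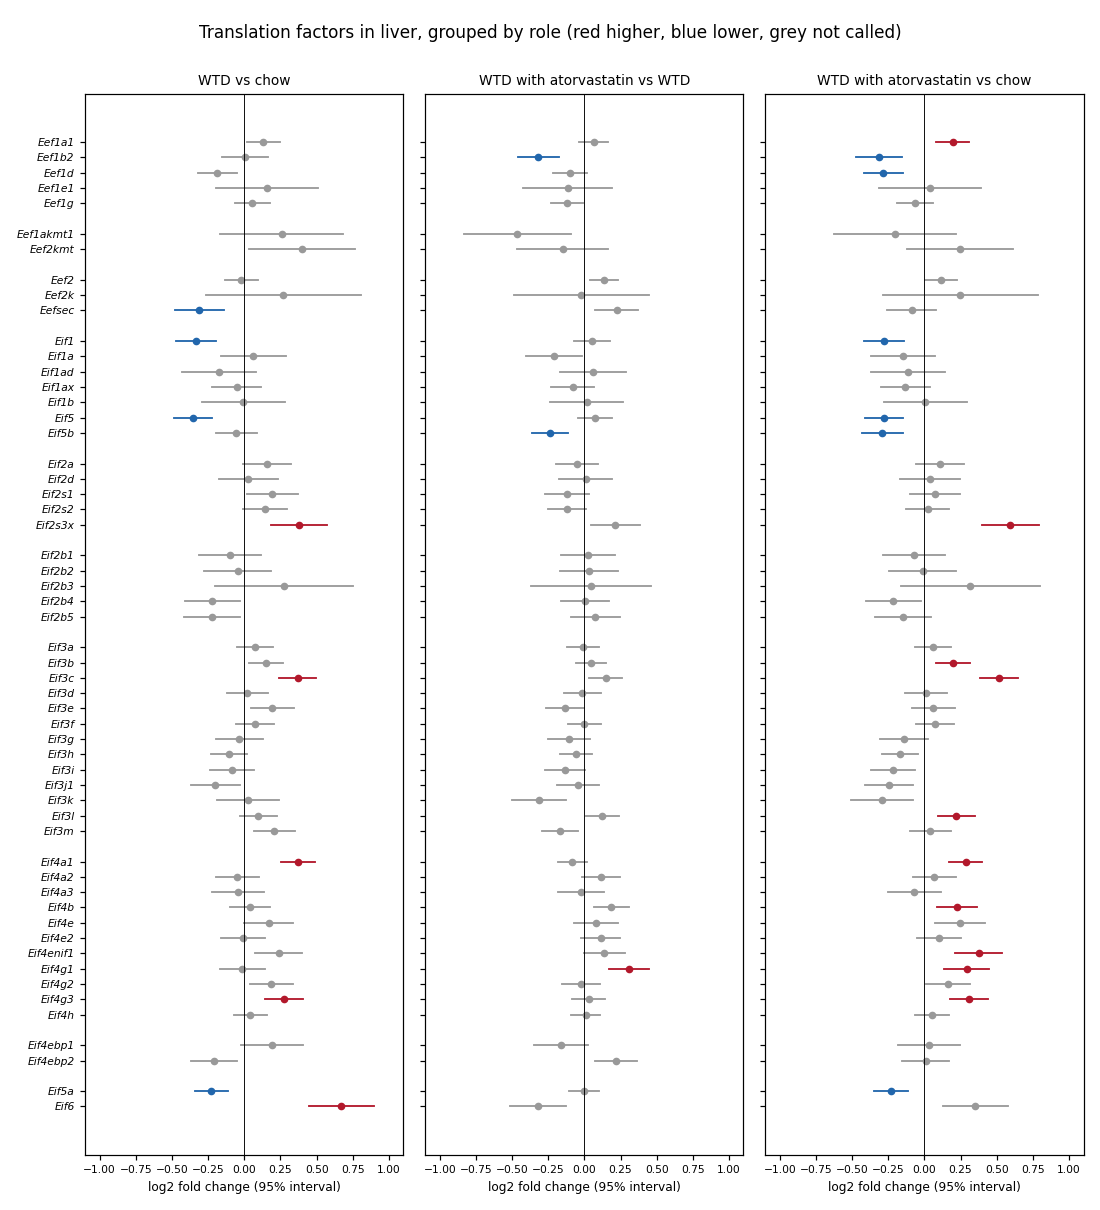
Log2 fold change with 95% interval of 55 factors in the 3 comparisons, ordered by role, red where higher, blue where lower and grey where not called; Eef1a2, Eif5a2, Eef1akmt3 and Eif3j2 are left out for their few counts. Most intervals include 0 or lie close to it, and Eif6 on WTD reaches 0.67.

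The second comparison asked what atorvastatin changed under WTD. Of 59 factors, 1 was higher and 2 lower with atorvastatin than on WTD alone, or 5.08%, where 7.10% of all genes tested were called. The rise was in Eif4g1 and the falls were in Eef1b2 and Eif5b. The median log2 fold change was -0.01 for the factors and 0.00 for all genes, and no factor separated the groups. This comparison shares the WTD-fed mice with the first, so the values are set side by side and not as independent results.

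Eif4g1, the principal scaffold of eIF4F, was 414 to 507 CPM on chow (median 458), 284 to 665 on WTD (median 452) and 440 to 638 with atorvastatin (median 566). Its spread was widest on WTD, and 15 of 16 atorvastatin-treated mice exceeded the WTD median. The log2 fold change was 0.31 ± 0.07 against WTD (edgeR adjusted p = 0.00142) and 0.29 ± 0.08 against chow (edgeR adjusted p = 0.00294), with -0.02 ± 0.08 for WTD vs chow (edgeR adjusted p = 0.893). On total counts the difference from WTD was 0.15 and not called (edgeR adjusted p = 0.0579), against a median of -0.16 over all genes. Eif4g3 had 0.03 ± 0.06 and Eif4g2, an eIF4G homolog that lacks the eIF4E site, -0.02 ± 0.07 between atorvastatin and WTD, and neither passed (edgeR adjusted p = 0.824 and 0.906). The Eif4g1 to Eif4g2 count ratio within a mouse had medians of 1.15 (chow), 0.971 (WTD) and 1.30 (atorvastatin).

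Eef1b2, the exchange factor that recharges eEF1A, was 159 to 234 CPM on chow (median 189), 135 to 278 on WTD (median 193) and 120 to 194 with atorvastatin (median 157). In 15 of 16 treated mice it lay under the WTD median. The log2 fold change was -0.32 ± 0.07 against WTD (edgeR adjusted p = 0.00143) and -0.31 ± 0.08 against chow (edgeR adjusted p = 0.00176). With the share of missed weak genes as a covariate these were -0.24 and -0.23 and did not pass (edgeR adjusted p = 0.0159 and 0.022), and on total counts the difference from chow was -0.15 (edgeR adjusted p = 0.196). Eef1a1, its substrate, was 3443 to 4370 CPM on chow (median 3965), 3913 to 5111 CPM with atorvastatin (median 4477) and 3905 to 4766 on WTD (median 4336), with 0.06 ± 0.05 for atorvastatin vs WTD (edgeR adjusted p = 0.486). The Eef1b2 to Eef1a1 count ratio was 0.0426 to 0.0660 on chow, 0.0284 to 0.0615 on WTD and 0.0279 to 0.0497 with atorvastatin.

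Eif5b, the GTPase that joins the ribosomal subunits, was 170 to 228 CPM on chow (median 201), 150 to 249 on WTD (median 191) and 136 to 198 with atorvastatin (median 164). All 3 ranges overlapped. The log2 fold change was -0.24 ± 0.06 against WTD (edgeR adjusted p = 0.00758) and -0.29 ± 0.07 against chow (edgeR adjusted p = 0.000962). The first call was lost in 14 of 42 fits that left out 1 mouse (edgeR adjusted p up to 0.0177) and also without the 9 libraries that miss weak genes (edgeR adjusted p = 0.0372, and 0.000138 to 0.0478 over 11 alternatives). The call against chow was lost on total counts (-0.13, edgeR adjusted p = 0.208) and with the share of missed genes as covariate (-0.23, 0.0102), with 8.8e-05 to 0.208 over 11 alternatives. Rev1 lies on the opposite strand over 28.6% of the exon bases of Eif5b.

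A few factors fell between the thresholds of 0.01 and 0.05. Eif3k, singled out after its values were seen, had -0.31 ± 0.10 (edgeR adjusted p = 0.0215), Eif4ebp2 0.22 ± 0.07 (0.0361), Eif4b 0.19 ± 0.06 (0.0379) and Eefsec 0.22 ± 0.08 (0.0415). Without WTD replicate 15, edgeR called 7 factors and not 3, adding Eif3k, Eif4b, Eif4ebp2 and Eif6 (adjusted p = 0.00909, 0.00544, 0.00315 and 0.00536). Without the 9 libraries it called 6, and 1664 of all 15799 genes tested in that fit. Replicate 15 is 1 of the 9 that miss weakly expressed genes.

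**Figure D4:**
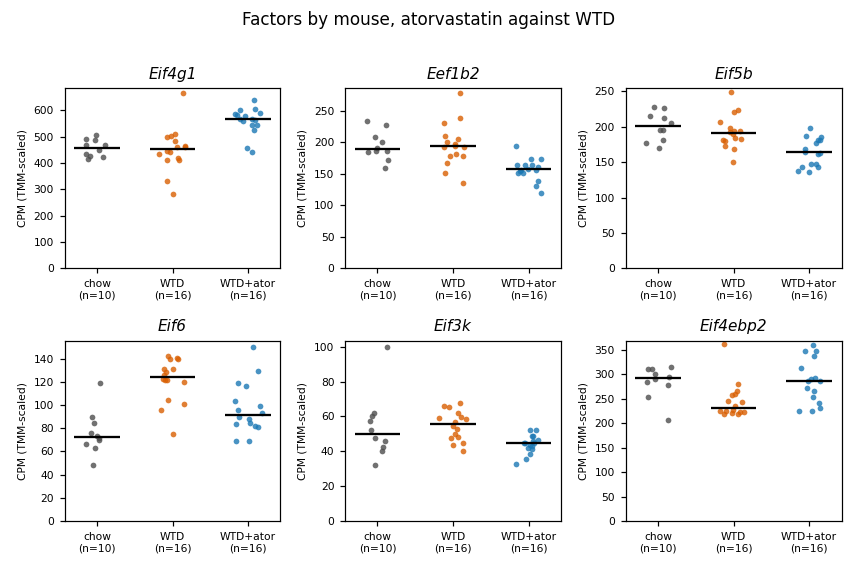
CPM (TMM-scaled, axis from 0) of 6 factors by mouse, with the group median as a line. Eif4g1 is higher and Eef1b2 and Eif5b are lower with atorvastatin than on WTD on the TMM scale. Eif6, Eif3k and Eif4ebp2 did not pass the threshold of 0.01 in edgeR with all mice, though some alternatives called them.

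In the third comparison, WTD with atorvastatin vs chow, 10 factors were higher and 7 lower, or 28.8%, beside 25.0% of all genes tested. The 7 include Eef1a2, whose value on chow rests on the 1 library with muscle transcripts and which turned to the other side without it, so its direction is not used. The median log2 fold change was 0.04 for the factors and for all genes. It shares mice with both others, and Eif3c was the only factor whose groups did not overlap, which 4.37% of all genes did. The falls of Eif1, Eif5 and Eif5a were -0.28 ± 0.07, -0.28 ± 0.07 and -0.23 ± 0.06 (edgeR adjusted p = 0.00129, 0.000705 and 0.00137), and on total counts they were -0.14, -0.13 and -0.08 and not called. Eif1 was also not called without the 9 libraries (-0.22, edgeR adjusted p = 0.0104). Rises were called for Eif2s3x, with 0.59 ± 0.10 (edgeR adjusted p = 3.87e-06), for Eif4g3, with 0.31 ± 0.07 (0.00023), and for Eif4a1, with 0.29 ± 0.06 (9.22e-05).

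Eif4enif1, which carries eIF4E into the nucleus, was 25.4 to 44.2 CPM on chow (median 30.5), 29.4 to 45.1 on WTD (median 34.8) and 33.3 to 45.6 with atorvastatin (median 39.9). Every treated mouse exceeded the chow median, with a log2 fold change of 0.37 ± 0.08 (edgeR adjusted p = 0.000324) that all 11 alternatives called. Eef1d, the second exchange factor of the eEF1 complex, was 81.5 to 144 CPM on chow (median 120), 89.1 to 119 on WTD (median 104) and 76.0 to 112 with atorvastatin (median 95.3). All 16 treated mice lay under the chow median, with -0.28 ± 0.07 (edgeR adjusted p = 0.000766), while on total counts the value was -0.13 and not called (adjusted p = 0.145).

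The rises of Eef1a1 (0.20 ± 0.06, edgeR adjusted p = 0.00551), Eif3b (0.20 ± 0.06, 0.00861), Eif3l (0.22 ± 0.07, 0.00677) and Eif4b (0.23 ± 0.07, 0.00997) were close to the threshold. Eif4b, which stimulates the eIF4A helicase, was 232 to 335 CPM on chow (median 283), 252 to 388 on WTD (median 283) and 258 to 425 with atorvastatin (median 327). Eif3b and Eif3l are eIF3 subunits. Leaving out 1 mouse ended the call in 5, 15, 10 and 28 of 42 fits, with adjusted p up to 0.0177, 0.0217, 0.0198 and 0.0285. For Eef1a1 these were chow replicates 1, 2, 4 and 8 and atorvastatin replicate 13, and without chow replicate 1, the library with muscle transcripts, Eef1a1, Eif3b and Eif4b were not called (adjusted p = 0.0115, 0.0217 and 0.0285). On the TOP list 4 of 12 were higher and 2 lower (50.0%), beside 25.0% of all genes, and 3 of these 6, Eef1a1, Eif3l and Eif4b, are among the calls lost on leaving out single mice. With the share of missed genes as covariate Eef1a1, Eef1b2, Eif3l and Eif4b were not called, and on total counts Eef1b2 and Eef1d were not.

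Eef1a2 is the eEF1A isoform of skeletal muscle, heart and neurons. Its counts on chow were 1379 in replicate 1 and 0 to 5 in the other 9 mice, against 0 to 63 on WTD (median 18) and 0 to 66 with atorvastatin (median 5.5). The value on chow was thus set by the library with muscle transcripts. The fitted log2 fold change of -3.87 ± 1.13 for atorvastatin vs chow (edgeR adjusted p = 0.00603) turned to 3.59 without that mouse (0.00758), and for WTD vs chow -3.07 ± 1.09 (0.0206) turned to 4.40 (0.00106). No direction is given for this gene. In the same library Acta1 was at 820 CPM, Atp2a1 at 638 CPM and Ckm at 436 CPM, with at most 0.938 CPM for each of these in the other mice.

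**Figure D5:**
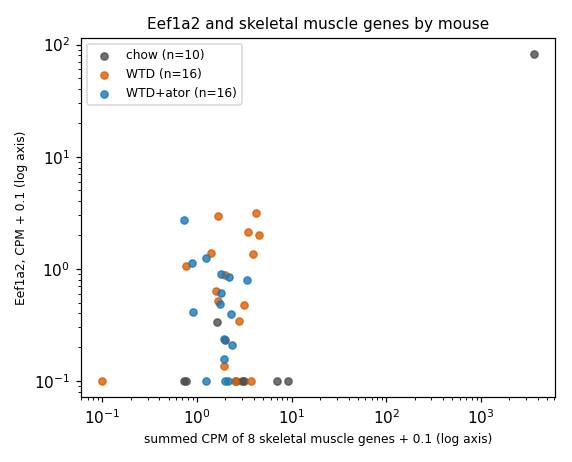
Eef1a2 against the summed level of 8 skeletal muscle genes in each of 42 mice, both in CPM with 0.1 added on log axes. Chow replicate 1 stands alone at 82.1 CPM of Eef1a2 and 3638 CPM of muscle genes, while the other mice reach at most 3.02 CPM of Eef1a2.

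Among other rarely counted factors, Eif5a2, the second eIF5A gene, had 0 to 33 counts on chow with 6 of 10 mice at 0, 0 to 78 on WTD with 1 of 16 at 0 and 0 to 99 with atorvastatin with 1 of 16 at 0. The difference between WTD and chow did not pass (edgeR adjusted p = 0.0252), while DESeq2 and limma-voom called it (0.00316 and 0.00873). Eef2k, which inactivates eEF2, was 0 to 25.0 CPM on chow (median 15.6) and 8.69 to 23.5 on WTD (median 17.6) and 12.5 to 20.1 with atorvastatin (median 17.2), with 0.27 ± 0.27 for WTD vs chow (edgeR adjusted p = 0.448). Its target Eef2 was 1415 to 1703 CPM on chow (median 1609), 1316 to 1848 on WTD (median 1558) and 1507 to 1937 with atorvastatin (median 1749), and edgeR called it in no comparison on TMM (adjusted p = 0.0633 to 0.808), while limma-voom called it higher with atorvastatin than on WTD (0.17, adjusted p = 0.000669).

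Other factors named by the rule were not called by edgeR on TMM in any comparison. Eif2b5, the catalytic eIF2B subunit, was 34.7 to 68.6 CPM on chow (median 44.3), 22.4 to 51.6 on WTD (median 41.4) and 36.3 to 52.4 with atorvastatin (median 43.1). Eif2s1, whose phosphorylation slows initiation, was 30.7 to 57.7, 41.6 to 65.9 and 33.2 to 56.0 CPM. Their ranges overlapped throughout. Eif3a was 200 to 293 CPM on chow (median 249), 218 to 306 on WTD (median 261) and 221 to 297 with atorvastatin (median 254). Eif3e was 68.6 to 99.8, 74.5 to 133 and 65.3 to 95.2 CPM, with medians of 77.7, 87.2 and 84.6. Both are core subunits of eIF3 and their groups overlapped. Eif3f was 71.6 to 96.3, 70.4 to 122 and 76.9 to 106 CPM, and Eif3h 103 to 143, 103 to 136 and 93.8 to 129 CPM. Eef1g, a scaffold of the eEF1 complex, was 175 to 243, 196 to 275 and 180 to 251 CPM. These last 3 overlapped too, with log2 fold changes of 0.08, -0.11 and 0.06 for WTD vs chow and of -0.0004, -0.06 and -0.12 for atorvastatin vs WTD. Some of these factors were called by other fits. For WTD vs chow, Eif2s1 was called by limma-voom (0.30, adjusted p = 0.000944) and without the 9 libraries (0.27, 0.00748), and Eif3e by DESeq2 (0.23, 0.00932) and with at least 10 counts in every mouse (0.25, 0.00582). For atorvastatin vs chow, Eif3h was called by limma-voom (-0.20, adjusted p = 0.00547) and without the 9 libraries (-0.22, 0.00823).

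Genes that regulate or work beside these factors were read from 7 lists. On total counts the falls named here were smaller and only those of Deptor and Tufm passed (edgeR adjusted p = 0.00358 and 0.000405), while the rises on WTD passed on both scales. Of 18 genes of mTORC1 and translation control, 3 were higher and 5 lower on WTD vs chow, or 44.4%, beside 33.5% of all genes tested. The directions of these list counts depended on the scaling. By total counts 7 of the 18 were higher and 1 lower, where 82.4% of all called genes were higher. Larp1, the TOP mRNA binder, fell by 0.49 on the log2 scale (edgeR adjusted p = 3.75e-08) and was 0.27 higher with atorvastatin than on WTD (edgeR adjusted p = 0.00137), with medians of 264, 185 and 229 CPM on chow, WTD and atorvastatin. Deptor, an mTOR inhibitor, fell by 0.56 on WTD (edgeR adjusted p = 7.71e-08), and the S6 kinase relative Rps6ka1 was 1.23 higher (edgeR adjusted p = 1.9e-13). With atorvastatin, Mtor was 0.37 higher than on WTD (edgeR adjusted p = 0.00954).

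Of 16 genes of the eIF2 kinases and the integrated stress response, 2 were higher and 3 lower on WTD vs chow (31.2%), and by total counts 7 higher and none lower. Atf4, the transcription factor translated when eIF2 is phosphorylated, fell by 0.39 on the log2 scale (edgeR adjusted p = 4.28e-07), Atf5 fell by 0.52 (6.81e-07), and the eIF2 kinase Eif2ak3 was 0.61 higher (2.54e-05). Of 20 initiation partners tested 4 were higher and 3 lower (35.0%), led by the poly(A)-binding protein Pabpc1, 0.53 higher (edgeR adjusted p = 2.43e-11). By total counts 11 partners were higher and 1 lower. Of 10 mitochondrial translation factors 4 were lower and none higher (40.0%), with Tufm at -0.58 (edgeR adjusted p = 5.77e-10). By total counts 1 mitochondrial factor was higher and 1 lower. The remaining counts were 4 higher and 1 lower of 22 aminoacyl-tRNA synthetases (22.7%), 1 higher and 3 lower of 10 termination and rescue genes (40.0%), and none of 8 enzymes that modify eIF5A and eEF2 (1 at an unadjusted p under 0.05, and 0 by DESeq2 or limma-voom). DESeq2 called 9 synthetases higher and 1 lower, and 3 termination genes higher and 3 lower, beside 5720 of 15574 genes. In limma-voom 6 synthetases were higher and 1 lower, beside 6509 of 15574 genes. By total counts 14 synthetases, 5 termination genes and 1 modifying enzyme were higher and none lower.

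With atorvastatin vs WTD, 2 of 16 genes on the stress response list (Eif2ak1 and Gcn1l1, 0.29 and 0.38 higher, edgeR adjusted p = 0.00426 and 0.0004), 2 of 18 on the mTORC1 list and 1 of 22 synthetases (Aars, 0.26 higher, 0.00372) were called and all were higher, though none of the 5 passed on total counts (edgeR adjusted p = 0.0383 to 0.249). These are 12.5%, 11.1% and 4.55% of the lists, beside 7.10% of all genes tested. In the partner, termination, mitochondrial and modifying enzyme lists edgeR and DESeq2 called none, with 2, 4, 2 and 1 genes at an unadjusted p under 0.05, and limma-voom called 1, 3, 3 and 1. Of all 15574 genes, 3822 had an unadjusted p under 0.05 in edgeR, and limma-voom called 3145. The median log2 fold change of these lists for WTD vs chow ran from -0.20 for mitochondrial factors to 0.19 for termination, beside 0.03 for all genes. By total counts it ran from 0.11 for mitochondrial factors to 0.50 for termination, beside 0.34 for all genes.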

How the data were processed

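Counts were deposited by the authors as raw HTSeq-count values per gene, made from strand-specific paired-end liver RNA libraries aligned with STAR to GRCm38 with GENCODE vM19, without normalization or filters. Tools per the submitters' processing notes include STAR 2.5 and HTSeq 0.6.1p1. The merged table equalled all 42 single tables, 0 columns belonged to no sample, and no libraries were duplicates. HTSeq summary lines (unassigned 2.00% to 2.78%, ambiguous 5.43% to 6.57%, aligned to several places 4.07% to 5.36% per mouse) were left out, so genes with near-identical copies may be undercounted. Symbols, positions and lengths came from GENCODE vM21 on GRCm38, which matched 54409 of 54446 identifiers. Protein-coding genes nested in another of the same strand without a shared exon base held 0 counts in 188 of 189 cases, and on the opposite strand in 28.9%. Eef1akmt2 lay in this way. Eif4e3 and Eef1akmt4 had 100% and 98.9% of exon bases in same-strand spans, and 14.8% and 30.7% in exons of those genes. For those 3 genes a value of 0 says nothing of expression. Eif2s3y lies on chromosome Y, and all mice were female. Overlaps in vM19 were not checked for Eif2s3y, Eif4e1b and Eif4ebp3. Beyond these nested genes, whether reads were counted over whole gene spans, introns included, was not tested. Levels per kilobase of exon would then rest on too short a length.

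Genes were filtered with filterByExpr (minimum count 10, total 15), scaled by TMM and tested with edgeR 4.0.16 (quasi-likelihood, robust, all 42 mice, no covariates) in R 4.3.3, with Benjamini-Hochberg adjustment over 15574 genes and calls at adjusted p under 0.01. This replaces the DESeq2 of the study, which was an alternative. Fold changes are on the log2 scale with SE. CPM use TMM-scaled library sizes. Pair ratios are of counts within a mouse and carry no test, since the pairs were chosen after values were seen. The 59 factors and all gene lists were chosen with earlier results of these data known. Values per group were printed for the called factors with the 6 largest rises, 6 largest falls and 4 smallest adjusted p per comparison, the 5 most abundant per length and 24 fixed genes, and from each pathway list the genes with the 3 smallest adjusted p among those called could be named.

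Alternatives were DESeq2 1.42.0, limma-voom 3.58.1 (sample weights), scaling by RLE or the upper quartile, a fit without the 20 most abundant genes, the unfiltered table, a floor of 10 counts in each mouse, only the 2 groups compared, adjusted p under 0.05, no libraries that miss weak genes, their share as covariate and leaving out each mouse. Total-count scaling was chosen after seeing the data. In simulated data with 15574 genes, 136 of 200 changed genes were called for WTD vs chow with 0 unchanged ones. The changed genes had a median fitted size of 1.01 on the log2 scale, against 0.16 for the factors. Changes as small as that, and shifts in library composition, were not simulated. Figures used Python 3.11.15 and matplotlib 3.10.9. Protein sequences were not used here.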

Additional observations from a re-analysis of the deposited data

Results flagged for a closer look

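The chow group, the only one of at most 10 mice, was searched for single mice far from the rest in each factor. This picked 5 of 59 factors, where chance picks about 1 in 20. Eef1a2 was at 82.1 CPM in chow replicate 1 and at most 0.237 CPM in the other 9, in the library with skeletal muscle transcripts. In chow replicate 2, a library that misses many weakly expressed genes, Eif2b3 was at 0.0 CPM with the next mouse at 7.49 CPM, and Eif3k was at 100.1 CPM with the next at 62.0 CPM. Eif4e was at 58.1 CPM in chow replicate 5, another such library, above 43.8 CPM in the next mouse. Eif4enif1 was at 44.2 CPM in chow replicate 10, above 33.65 CPM in the next.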

How the results depend on the processing

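For WTD vs chow the 9 called factors became 17 with DESeq2 and 33 (33 higher, 0 lower) on total counts. With at least 10 counts in every mouse they became 15 of 53 tested. All genes called were 5720 of 15574, 6249 of 15574 and 4183 of 9973 in these fits, beside 5224 of 15574 in the main fit. The 9 became 18 at adjusted p under 0.05 in edgeR, and 9 to 11 on leaving out each mouse. For atorvastatin vs WTD the 3 became 5 with DESeq2, with at least 10 counts in every mouse or with only the 2 groups compared. All genes called there were 1363 of 15574, 1160 of 9973 and 1361 of 14595, beside 1106 of 15574 in the main fit. The 3 became 10 with limma-voom (3145 of 15574 genes) and 12 (0 higher, 12 lower) on total counts (1352 of 15574 genes). They became 6 without the 9 libraries (1664 of 15799 genes) and 8 at adjusted p under 0.05 in edgeR. With the share of missed genes as covariate 1 was left (983 of 15574 genes), and 2 to 7 on leaving out each mouse. For atorvastatin vs chow the 17 became 10 with that covariate (3399 of 15574 genes, beside 3893 in the main fit) and 13 to 20 on leaving out each mouse. The median log2 fold change of the factors moved to 0.35, -0.17 and 0.19 on total counts, where the median of all genes was 0.34, -0.16 and 0.20, and of all called genes 82.4%, 24.4% and 76.7% were higher, beside 52.2%, 68.2% and 57.0% with TMM. For atorvastatin vs WTD that share was 50.9% with DESeq2 and 54.9% with RLE. Over the fits without 1 mouse the 3 medians ran from 0.03 to 0.05, -0.03 to -0.0001 and 0.01 to 0.06. A sign change was counted only where a factor was called in 1 of the fits. On total counts for WTD vs chow this held for Eef2 (0.29), Eif3g (0.28), Eif3h (0.21), Eif4a2 (0.26), Eif4e2 (0.30), Eif4g1 (0.29), Eif5a (0.086) and Eif5b (0.26), by the construction of that scaling. Eef1a2 turned to 3.81 with DESeq2 for WTD vs chow and ran from -3.28 to 4.40 on leaving out each mouse. For atorvastatin vs chow it turned to 2.95 with DESeq2 and 2.05 with limma-voom and ran from -4.29 to 3.59, the positive value each time without chow replicate 1. Eif6, Eif4a1, Eif3c and Eif4g3 on WTD vs chow were called in all 11 other fits and on leaving out each mouse. Leaving out 1 mouse brought Eef1d (without chow replicate 4), Eif3m and Eif4enif1 (chow replicate 10) and Eif5a2 (chow replicate 9) under the threshold for WTD vs chow, and Eif3i (atorvastatin replicate 7), Eif3j1, Eif3k and Eif4e (chow replicate 5) for atorvastatin vs chow, where Eif6 was called in 6 of 42 such fits. No paired analysis was possible because replicate numbers were given in accession order and each mouse belongs to 1 group. The cause of the other changes was not tested. Few counts limit Eef1a2, Eif5a2, Eef1akmt3 and Eif3j2.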
